A study of Arabidopsis thaliana with 14 samples.

Results

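The genes described here are 60 Arabidopsis genes that stood higher in every leaf library taken 3 h or 24 h after a gibberellin needle than in any untreated or mock library. They were chosen from 34218 genes counted, and the values that chose them are their own levels. Each level was written as log2(CPM + 1), where CPM is the count of a gene scaled to 1000000 reads of that library counted in genes. The score of a gene was its lowest value in the 3 GA3 3 h and 3 GA3 24 h libraries minus its highest value in the 3 mock and 3 untreated libraries, and the 60 highest scores were taken. The height of these genes in the 6 GA3 libraries over the 6 control libraries is therefore given as a description and without a test. Tests were run between groups on the same side of the choice, and on the GA3 168 h libraries, which the choice did not use.

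All plants were ft-10, which carries a lesion in the gene for the mobile flowering signal FT, and no other genotype was compared, so the levels describe that background alone. They were 30 days old, grown in soil at 22 °C with 16 h of light and 8 h of dark, and RNA came from whole rosette leaves after the needles had been taken out. Leaves given silk microneedles loaded with 15 mM GA3 were taken at 3 h, at 24 h and at 168 h, with 3, 3 and 2 libraries. A further 3 libraries came from leaves given empty silk needles (mock) and taken at 24 h, and 3 from untreated leaves, which were given no needle and taken at 0 h. The titles of the untreated samples carry the letters of the GA3 series, while their treatment label reads none, and the treatment label was followed. A mock needle was sampled at 24 h and at no other time, so at 3 h and 168 h GA3, the puncture, the time since the start and leaf age cannot be told apart. In bulk leaf RNA, fewer cells of a type and less RNA per cell cannot be told apart either.

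Gibberellins are growth hormones that bind the GID1 receptor, which then lets the DELLA repressor proteins be degraded. Loss of DELLA proteins frees transcription factors that promote elongation, and it lowers the genes that make gibberellin and raises those that inactivate it, a feedback that returns the hormone to its set level. Elongating cells loosen their walls with expansins and xyloglucan endotransglucosylases. Leaves also answer cold, drought, heat and wounding with membrane-protecting proteins, raffinose sugars and chaperones.

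By their annotated roles, 3 of the 60 belonged to gibberellin or other hormones, 5 to the cell wall and organ growth, 3 to cold-regulated membrane proteins, 7 to chaperones and heat-shock factors, 7 to sugars and starch, 5 to other transport and 4 to genome maintenance and the nucleus. A further 9 were other enzymes, 5 were other regulators or receptor-like proteins and 12 were little-described genes. All but 1 coded for protein, and all 60 passed the filter on low counts.

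Promoter sequences are shown for 5 members from the groups whose levels are described first, so that the letters in front of each gene can be read beside its values. Each is the 250 bases before the annotated start of the gene, 5′ to 3′ on the strand of the gene, from RefSeq on build TAIR10.1. Capitals mark matches to any of 12 motifs on either strand, and motifs can overlap, since the abscisic acid core is part of the G-box.
ATGA2OX1, chr1:29513101-29513350, minus strand: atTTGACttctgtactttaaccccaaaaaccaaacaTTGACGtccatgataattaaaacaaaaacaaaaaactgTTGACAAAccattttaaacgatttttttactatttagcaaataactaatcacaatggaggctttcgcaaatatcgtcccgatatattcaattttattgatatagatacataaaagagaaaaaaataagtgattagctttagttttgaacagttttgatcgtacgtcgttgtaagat
EXP3, chr2:15790140-15790389, minus strand: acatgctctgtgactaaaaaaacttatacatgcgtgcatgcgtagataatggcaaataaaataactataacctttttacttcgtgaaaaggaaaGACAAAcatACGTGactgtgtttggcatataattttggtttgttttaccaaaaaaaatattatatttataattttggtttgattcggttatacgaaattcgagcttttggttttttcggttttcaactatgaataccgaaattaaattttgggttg
XTH32, chr2:15474829-15475078, minus strand: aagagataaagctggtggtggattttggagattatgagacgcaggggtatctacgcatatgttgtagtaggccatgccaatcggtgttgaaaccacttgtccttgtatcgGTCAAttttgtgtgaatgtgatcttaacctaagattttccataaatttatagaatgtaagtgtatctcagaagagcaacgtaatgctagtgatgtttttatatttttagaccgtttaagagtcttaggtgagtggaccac
COR413IM1, chr1:10289667-10289916, minus strand: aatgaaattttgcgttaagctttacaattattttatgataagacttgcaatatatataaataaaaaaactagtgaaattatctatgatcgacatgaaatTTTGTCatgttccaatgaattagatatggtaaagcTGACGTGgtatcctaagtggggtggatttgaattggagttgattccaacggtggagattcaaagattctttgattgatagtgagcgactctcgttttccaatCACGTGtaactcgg
HSFA2, chr2:11135374-11135623, plus strand: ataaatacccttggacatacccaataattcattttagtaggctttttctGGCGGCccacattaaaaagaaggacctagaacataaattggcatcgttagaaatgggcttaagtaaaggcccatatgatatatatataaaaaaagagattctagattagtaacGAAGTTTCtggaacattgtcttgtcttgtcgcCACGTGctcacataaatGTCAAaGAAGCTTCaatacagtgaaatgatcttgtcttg

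The gibberellin response element TAACAAA was in none of these 5 windows. Windows were taken for protein-coding genes only. Over the 59 protein-coding members it was found in 10.2%, against 16.1% of all 27443 protein-coding promoters searched. The core bound by INDETERMINATE DOMAIN factors, TTTGTC, was in 28.8% of member promoters and 24.1% of all. The abscisic acid core ACGTG was in 27.1% and 22.9%, its G-box form CACGTG in 10.2% and 6.49%, and the cold and drought core CCGAC in 13.6% and 12%. Member promoters held the as-1 core TGACG in 28.8% of cases and the W-box TTGAC in 40.7%, while all promoters held them in 18.6% and 44.9%. The GCC box GCCGCC was in 3 member promoters, or 5.08%, against 1.87% of all. Shares for the evening element AAATATCT were 6.78% and 4.79%, for the L1 box TAAATGCA 1.69% and 1.57%, and for the telo box AAACCCTA 3.39% and 4.49%. The heat shock core GAANNTTC, which was added to the search after the members were seen, was in 10.2% of member promoters and 9.55% of all. It occurred 2 times in front of HSFA2. A match is a run of letters and not a measured binding site.

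Most members cleared the control libraries by little. Scores ran from 0.029 to 1.106, with a median of 0.11, and 22 of the 60 were under 0.1. EXP3 alone had a score of at least 1, and EXP3 and AT1G01355 were the 2 members whose lowest GA3 library was at least 2 times the highest control library in CPM. Scores above 0 were found for 78 of the 34218 genes. The last members were AT1G02180 and ALDH3I1, whose lowest GA3 libraries stood at 1.56 and 97.1 CPM, against 1.5 and 95.2 CPM in their highest control libraries. The first genes left out were SCAB1, at 42.2 CPM in its lowest GA3 library against 41.4 CPM in its highest control library, and ECA2, at 30.9 against 30.3 CPM. In 46 members the lowest GA3 library was one of the 24 h libraries, most often the third (26 members). In 48 members the highest control library was a mock library, most often the first (24 members). Without the third GA3 24 h library or without the first mock library, 18 of the 60 remained among the 60 highest scores. Without the third GA3 3 h library 26 remained, without the second GA3 24 h library 28, without the third mock library 42 and without the first GA3 24 h library 43. Library sizes scaled by TMM (trimmed mean of M values, a scaling to the bulk of genes) kept 39, and a rank by difference of means kept 6. The 13 members that stayed whichever of the 12 libraries was left out were EXP3, IAGLU, XDH2, COR413IM1, AT1G51090, AT3G14200, XTH32, AT3G09550, COR413-PM1, WRKY23, HSFA2, TPPF and the raffinose synthase gene SIP1 (AT5G40390).

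A lowest GA3 library above the highest control library was found in 0.384% of the 20077 tested genes, and the reverse, all 6 GA3 libraries below all controls, in 0.523%. Summed over the 60 members, levels ran from 8957 to 9189 CPM in the GA3 3 h libraries and from 4527 to 5847 CPM in the GA3 24 h libraries. They ran from 3376 to 3683 CPM in the mock libraries and from 2339 to 2960 CPM in the untreated libraries. The 168 h libraries held 3808 and 4856 CPM. The plot of 60 genes by library shows that most of the colour lies at 3 h. The leaf label held, as 6 mesophyll markers summed to between 19355 and 43463 CPM, while meristem, seed and root markers summed to at most 1.5 CPM in any library. Total reads ran from 20448913 to 26537437 per library, and 88.8% to 95.8% of them were counted in genes. Reads that mapped to several places were highest in the GA3 3 h libraries (1.42% to 4.65%) and untreated libraries (1.15% to 3.43%), against 0.978% to 1.10% elsewhere. The part of this difference in the members' levels was not tested.

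**Figure D1:**
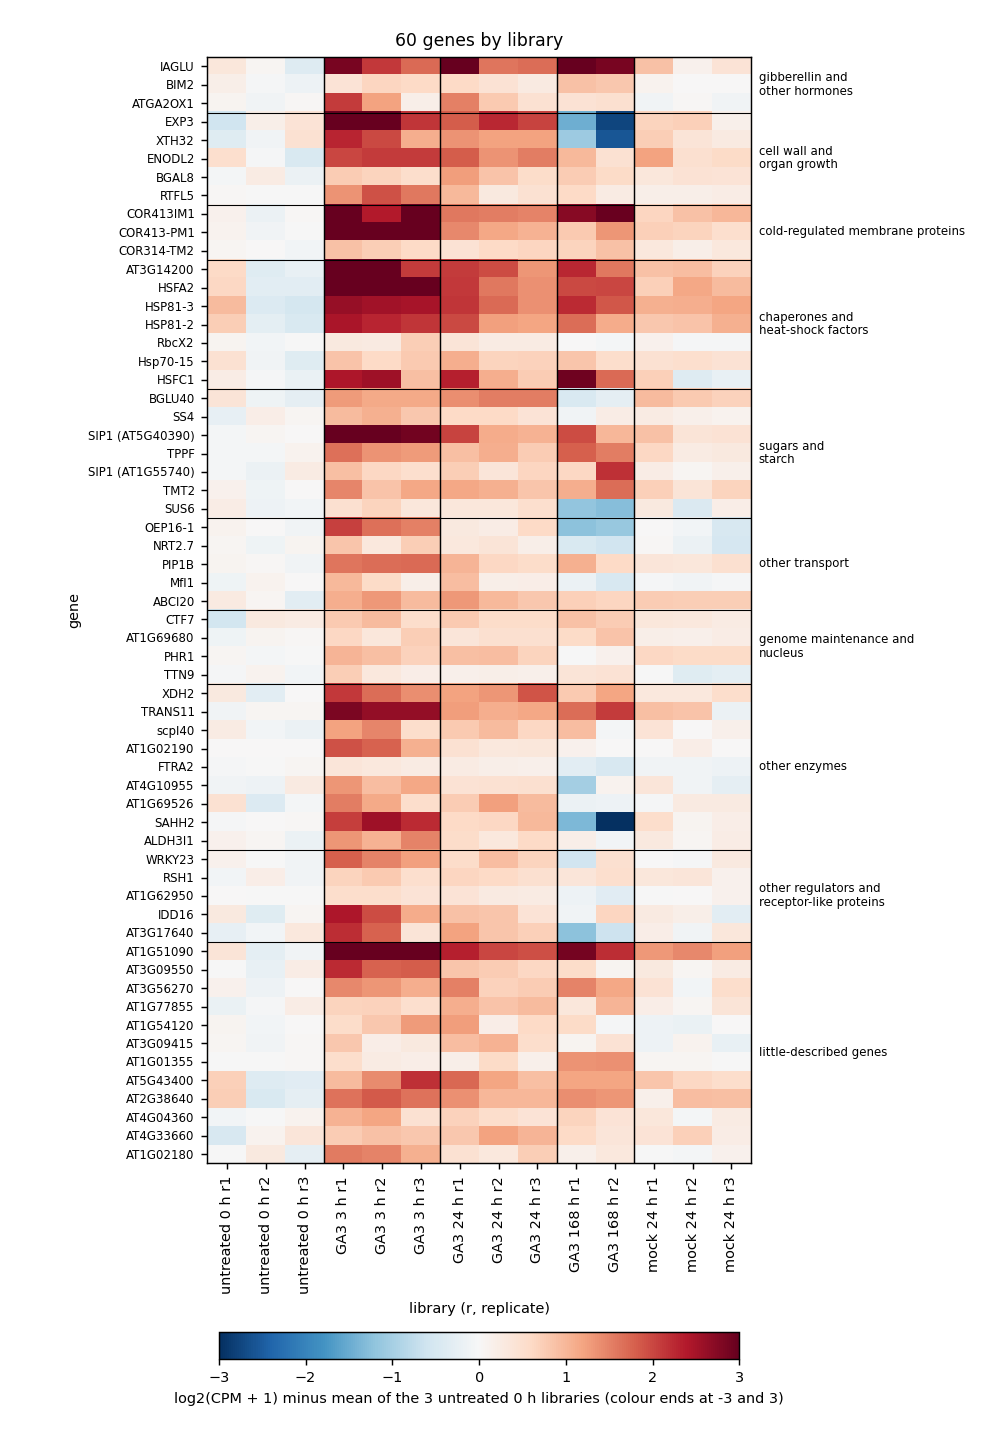
Level of the 60 genes (rows, grouped by role) in the 14 libraries (columns), as log2(CPM + 1) minus the mean of the 3 untreated 0 h libraries, red above and blue below. The GA3 3 h and 24 h columns are all red relative to the controls because the genes were chosen that way, whereas the 2 columns of GA3 168 h hold both red rows (COR413IM1, IAGLU) and blue rows (EXP3, SAHH2).

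In most members the mean of the mock leaves lay between those of the untreated and the GA3 24 h leaves, and 1 member passed the test against untreated. Mock leaves were taken at 24 h and untreated leaves at 0 h, so the empty needle and the elapsed time cannot be told apart here. Mean mock levels exceeded mean untreated levels in 51 of the 60 members, compared with 55.0% of all tested genes. All 3 mock libraries stood above all 3 untreated libraries in 20 members, and they did so in 13.9% of all tested genes. For 1 member, FTRA2, all 3 mock libraries stood below all untreated libraries, as in 9.66% of all genes. At 24 h the mock difference from untreated leaves, in log2(CPM + 1), was a median of 32.6% of the GA3 difference, and over 50% of it in 14 members. Mock levels lay below GA3 levels in every member by choice.

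Across all genes the mock and untreated groups were compared by edgeR's quasi-likelihood test, with a gene called at a Benjamini-Hochberg adjusted p under 0.05. The fit called 1 member higher with mock, against 0.608% of tested genes higher and 0.169% lower, and 0 members lower. Unadjusted p-values under 0.05 were found in 14 members, while DESeq2 called 5 (5.78% of all genes) and limma-voom 0. The called member was AT1G51090, annotated in the heavy metal transport/detoxification superfamily. AT1G51090 stood at 4.16, 4.68 and 3.87 CPM in the mock libraries, against 1.71, 0.71 and 0.944 CPM in the untreated libraries, and the groups did not overlap. Its fitted log2 fold change was 1.89 ± 0.31 (SE, n = 3 each, adjusted p = 0.0219). That call ended without any 1 of 4 libraries, namely the first mock (adjusted p = 0.055), the second mock (adjusted p = 0.0571), the second untreated (adjusted p = 0.0977) and the third untreated library (adjusted p = 0.135), and in a fit of these groups alone (adjusted p = 0.0711). The median fitted log2 fold change of the members was 0.36, against -0.0049 for all genes.

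**Figure D2:**
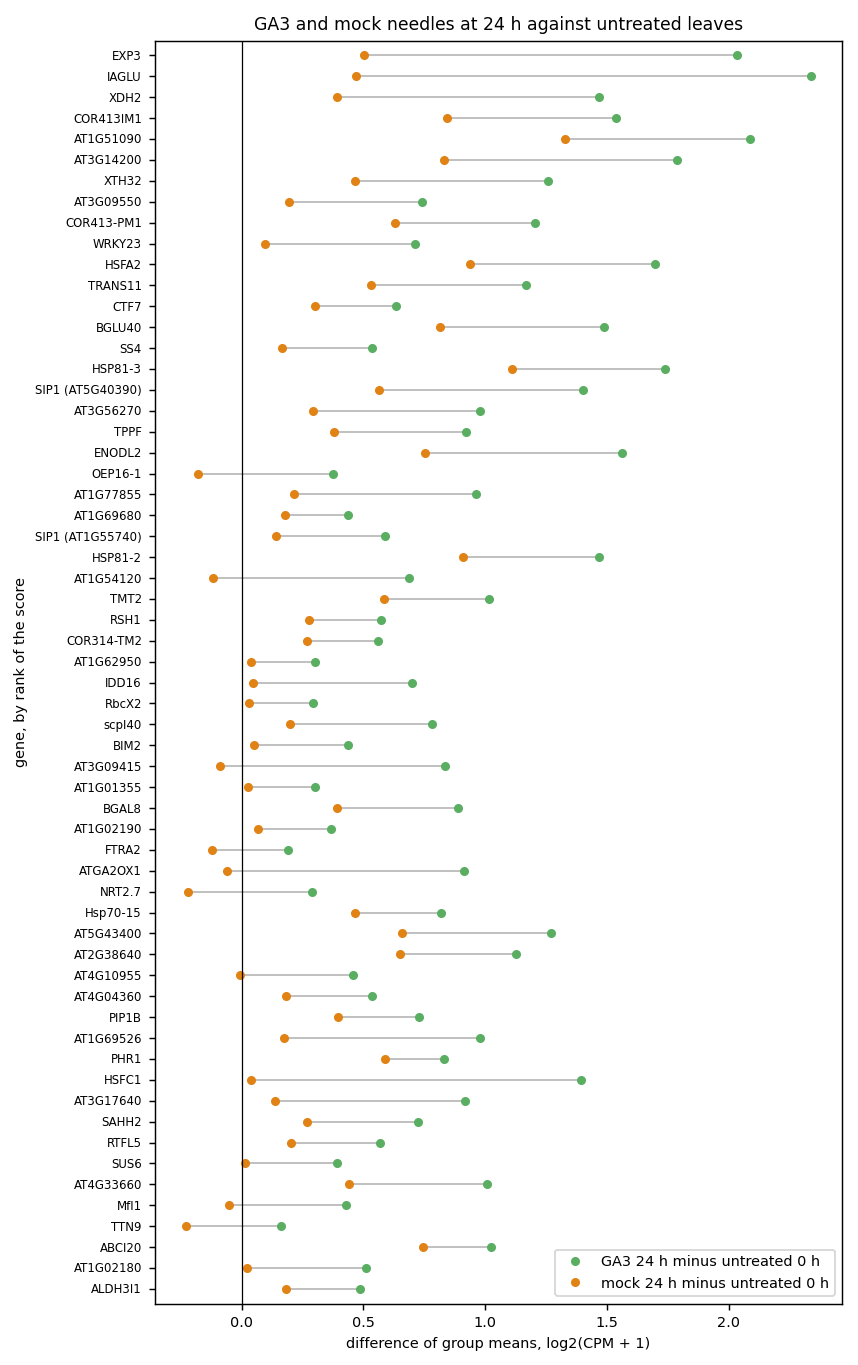
Difference of group means from untreated 0 h leaves, in log2(CPM + 1), for GA3 24 h (green) and mock 24 h (orange), 3 libraries a group, for the 60 genes in order of score. Orange points lie right of 0 for 51 of the 60 genes and, by choice of the genes, left of the green point of the same row.

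Between GA3 needles and mock needles at 24 h no gene of the 20077 was called by edgeR (smallest adjusted p = 0.0853, with 1322 genes at an unadjusted p under 0.05). DESeq2 called 47 genes, or 0.234%, of which 4 were members, and limma-voom called 0. Members were called higher than untreated in 29 cases at GA3 24 h (2.92% of all genes) and in 45 cases at GA3 3 h (8.55%), and lower in none (2% and 5.64% of all genes). These 3 contrasts chose the members, so nothing is read from them.

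Of the 60 members, 11 were called lower at GA3 24 h than at GA3 3 h, against 5.72% of all genes, and 0 were called higher, against 5.68%. The other 49 passed no test, and 19 members had a fitted fold change above 0. All 24 h libraries lay below all 3 h libraries in 26 members (24.3% of all genes) and above them in 2, BGLU40 and AT1G77855 (9.70% of all genes). The median log2 fold change of the members was -0.29, with -0.03 for all genes. Scaling to total counts instead of TMM moved the median of all genes by -0.16 and the share of higher calls among all genes to 29.3%, against 49.8%. It moved the median of the members to -0.45 and turned the sign of 12 members, none of them called. Of the 6 mesophyll markers, 2 were called higher at 24 h than at 3 h and 0 lower (median 0.74). Their sums were 37539 to 43463 CPM at GA3 24 h, against 35236, 32280 and 19355 CPM at GA3 3 h. The third GA3 3 h library, which had that lowest sum, also had the highest share of reads mapped to several places and of organelle gene reads (0.14%). Without it 10 members were called lower. The part of these differences in the members' values was not tested. Seen by role, 2 of 3 cold-regulated membrane genes fell, 2 of 5 other transport genes, 3 of 9 other enzymes, 1 of 7 chaperone and heat-shock genes, 1 of 7 sugar genes and 2 of 12 little-described genes. None of the 3 hormone genes, 5 wall and growth genes, 4 genome maintenance genes or 5 other regulators passed the test.

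At 168 h, 25 of the 60 members were called higher than in untreated leaves (15.1% of all genes). A further 9 were called lower, a share near that of all genes (16.1%). Against GA3 24 h leaves, 1 was called higher (10.3% of all genes) and 19 lower (13.9%). The untreated libraries were on the low side of the choice and the GA3 24 h libraries on its high side, so higher than untreated and lower than 24 h are the directions the choice favours, and lower than untreated is the direction it does not favour. Both 168 h libraries lay above all 6 control libraries in 31 members (27.6% of all genes) and below all 6 in 10 (15.2%). The comparisons share libraries (the 168 h ones in both, the GA3 24 h ones with the comparison against 3 h, and the untreated ones with the mock comparison), so their calls are given side by side and not as separate evidence. Joined, 23 members were higher than untreated and not called against 24 h, 9 were lower than both, 9 were lower than 24 h and not called against untreated, and 17 passed neither test. COR413IM1 was higher than both. ABCI20, with 32.2 and 31.0 CPM at 168 h, was called higher than untreated (0.50 ± 0.17, adjusted p = 0.0487) and lower than 24 h (-0.60 ± 0.18, adjusted p = 0.0303), both close to the threshold. The first of these ended with RLE scaling, limma-voom, no filter on low counts, a fit of these groups alone and a replicate block, and without either 168 h or the second or the third untreated library (adjusted p up to 0.189). The second ended with total-count scaling (adjusted p = 0.178), in a fit of these groups alone, and without either 168 h or the first or second GA3 24 h library (adjusted p up to 0.159). Total-count scaling moved the median of all genes by 0.20 against untreated and 0.24 against 24 h, and raised the share of higher calls among all genes to 63.0% (TMM 48.4%) and 64.8% (TMM 42.6%). Under it no called member changed sign. With 2 libraries at 168 h, 13 of the 34 calls against untreated and 9 of the 20 against 24 h were kept whichever library of the groups was left out.

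**Figure D3:**
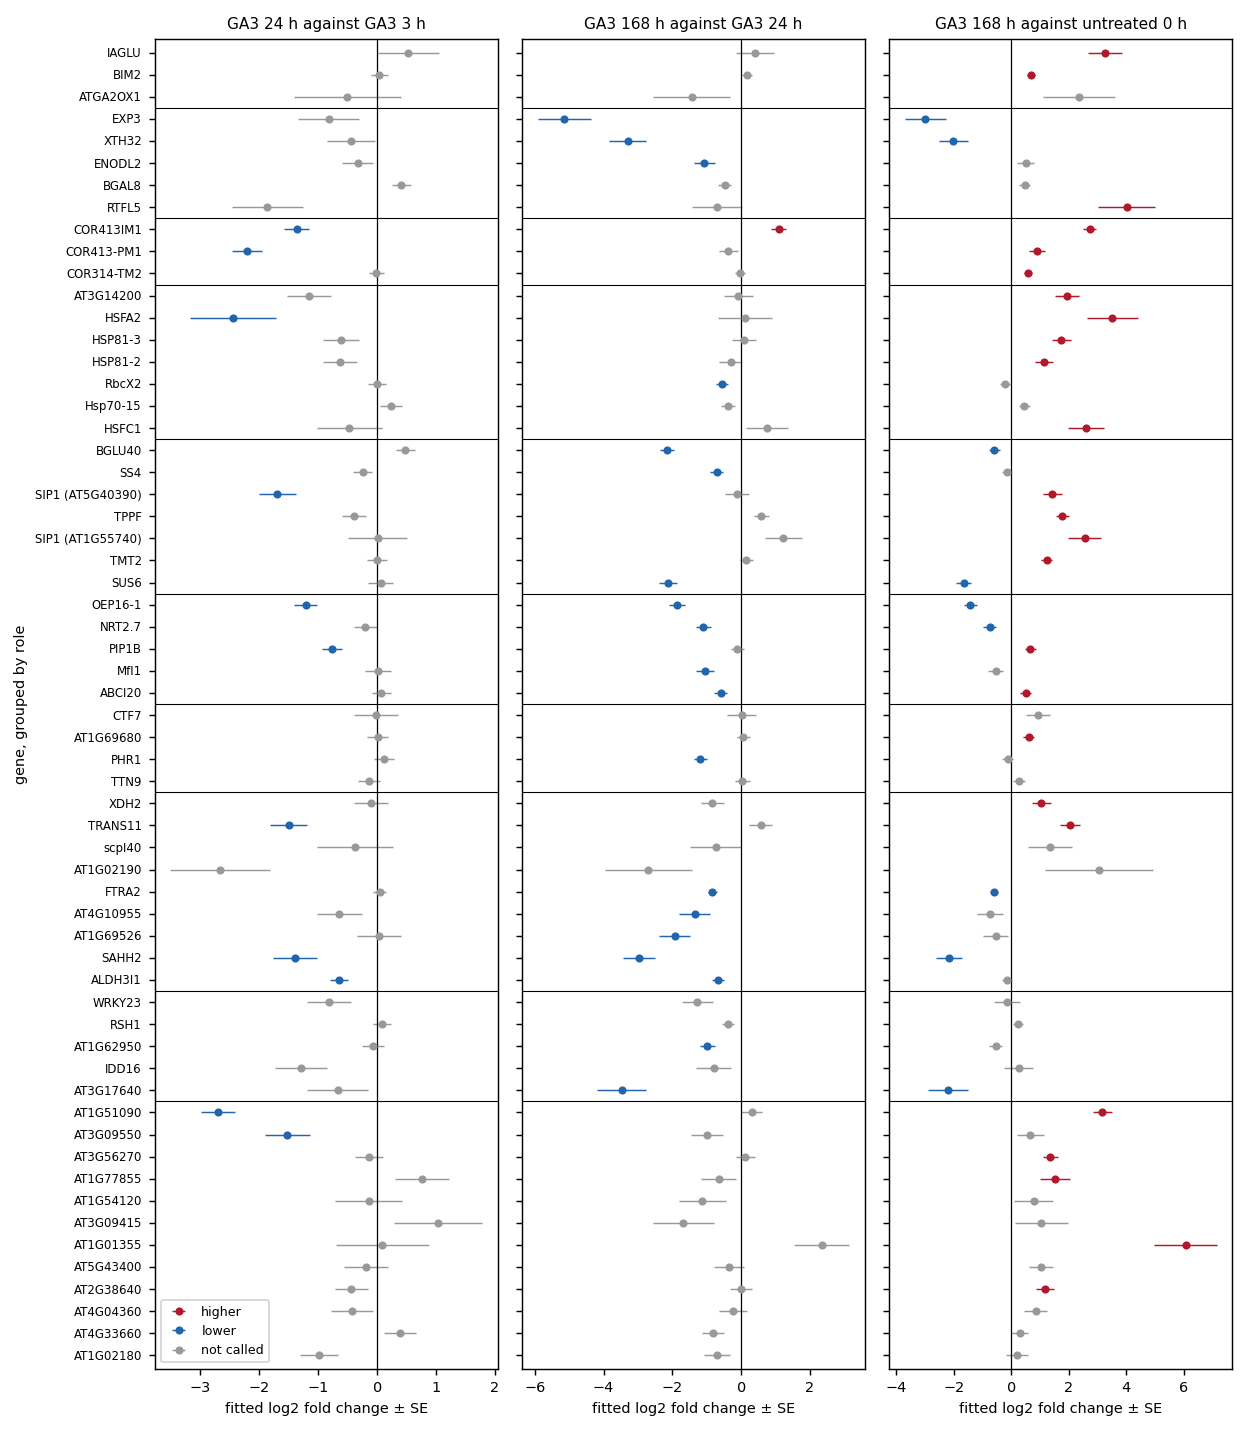
Fitted log2 fold change ± SE of the 60 genes (rows, grouped by role) from edgeR for GA3 24 h against GA3 3 h, GA3 168 h against GA3 24 h and GA3 168 h against untreated 0 h, with points coloured by the call at an adjusted p of 0.05. In the first panel 11 points are called, all lower, and in the last panel 25 are called higher and 9 lower.

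Among hormone genes, the gibberellin 2-oxidase gene ATGA2OX1 (AT1G78440), whose enzyme inactivates gibberellins, was near 0 in every control library. It stood at 3.62, 1.5 and 0.212 CPM at GA3 3 h and at 2.06, 0.853 and 0.471 CPM at GA3 24 h, against 0, 0.103 and 0 CPM with mock and 0.135, 0 and 0.0993 CPM in untreated leaves. The GA3 libraries spread widely, and the lowest of them stood close to the highest control. At 168 h it stood at 0.455 and 0.491 CPM, above all controls, and its log2 fold change against untreated of 2.36 ± 1.26 was not called (adjusted p = 0.174). The list of gibberellin inactivation genes held 11 genes, of which 4 passed the filter. All 4, with ATGA2OX1 among them by choice, were called higher at GA3 3 h than in untreated leaves (median log2 fold change 4.20, all genes -0.00014). The share called higher over all genes was 8.55%. In untreated leaves ATGA2OX1 and GAMT2 averaged 0.0781 and 0.0557 CPM. They passed the filter on low counts through other groups, so the count of 4 is partly built in. None of the 4 was called at GA3 24 h against mock (median 1.05, all genes -0.0028), where no gene at all was called. At 168 h GA2OX2 and GAMT2 were the 2 called higher than untreated (15.1% of all genes). GAMT2 passed the filter through groups other than untreated here too. GA2OX2 stood at 4.23 and 25.1 CPM, against 3.01, 2.21 and 1.19 CPM in untreated leaves (2.56 ± 0.61, adjusted p = 0.00951). One 168 h library carried that value, which was 0.78 without the second (adjusted p = 0.357) and 3.33 without the first, and the call also ended with limma-voom (adjusted p = 0.0511) and in a fit of these groups alone (adjusted p = 0.0612). GAMT2 stood at 6.09 and 4.96 CPM, against 0, 0.167 and 0 CPM in untreated leaves (6.21 ± 1.20, adjusted p = 0.00338). The call was kept whichever library was left out, and the fold change was 9.74 without the second untreated library, which leaves untreated counts of 0. GA2OX6, not a member, averaged 59.3 ± 14.7 CPM at GA3 3 h and 4.42 ± 2.95 CPM at GA3 24 h (SD, n = 3 each), and fell by 3.56 ± 0.40 on the log2 scale between them (adjusted p = 0.000601), or by 4.32 without the third GA3 24 h library. With mock it averaged 2.95 ± 0.0744 CPM and in untreated leaves 3.24 ± 0.559 CPM (SD, n = 3 each).

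IAGLU (AT4G15550), which attaches glucose to the auxin indole-3-acetic acid, had the second highest score. Its levels were 48.5, 28.9 and 21.3 CPM at GA3 3 h and 90.4, 19.9 and 21 CPM at GA3 24 h, against 11.7, 6.48 and 8.07 CPM with mock and 7.65, 6.14 and 4.27 CPM in untreated leaves. The first 24 h library stood apart from the other two. Both 168 h libraries were high, at 82.5 and 48.3 CPM, and the log2 fold change against untreated was 3.26 ± 0.59 (adjusted p = 0.00243). Reads on the opposite strand made up 60.3% of the reads at this locus, where AT4G15545 overlaps it, and that strand did not meet the choice. BIM2, a partner of brassinosteroid transcription factors, was a small and steady case. It stood at 17.5 to 20.8 CPM at GA3 3 h and 15.9 to 20 CPM at GA3 24 h, against 13.1 to 14.1 CPM with mock and 11.6 to 14.7 CPM in untreated leaves. At 168 h its 24.5 and 23.2 CPM were above all of these, and it was called higher than untreated (0.68 ± 0.15, adjusted p = 0.00655).

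Of the wall and growth genes, EXP3 and XTH32 were high early and had fallen below the untreated level by 168 h. EXP3 (EXPA3, AT2G37640, chr2:15787523-15790139) is an alpha-expansin, a protein that loosens the wall. EXP3 stood at 83.5, 75.9 and 34.6 CPM at GA3 3 h and at 27.3, 37.8 and 31.7 CPM at GA3 24 h, against 11.7, 12.1 and 7.93 CPM with mock and 4.32, 8.15 and 9.73 CPM in untreated leaves. Its 168 h libraries held 1.91 and 0.197 CPM, below all controls. The log2 fold change at 168 h was -5.15 ± 0.77 against GA3 24 h (adjusted p = 0.00184) and -2.98 ± 0.71 against untreated (adjusted p = 0.00921). XTH32 (AT2G36870) codes for an enzyme that cuts and rejoins or hydrolyses wall xyloglucan. XTH32 stood at 115, 93.8 and 49.9 CPM at GA3 3 h and at 60.0, 54.0 and 54.4 CPM at GA3 24 h, against 39.0, 30.1 and 27.7 CPM with mock and 17.6, 21.2 and 31.8 CPM in untreated leaves. At 168 h it stood at 10.3 and 3.00 CPM, again below all controls, with log2 fold changes of -3.30 ± 0.53 against GA3 24 h (adjusted p = 0.00233) and -2.02 ± 0.50 against untreated (adjusted p = 0.0111). The calls against untreated ended without the second 168 h library, with adjusted p = 0.0509 for EXP3 and 0.0736 for XTH32, and in fits of these groups alone (adjusted p = 0.0713 and 0.0648). Without the first 168 h library the fold changes were larger, -5.44 and -3.22, and without the second smaller, -2.18 and -1.42. The fold changes against GA3 24 h moved likewise, to -7.60 and -4.34 for EXP3 and to -4.51 and -2.70 for XTH32, with the calls kept.

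**Figure D4:**
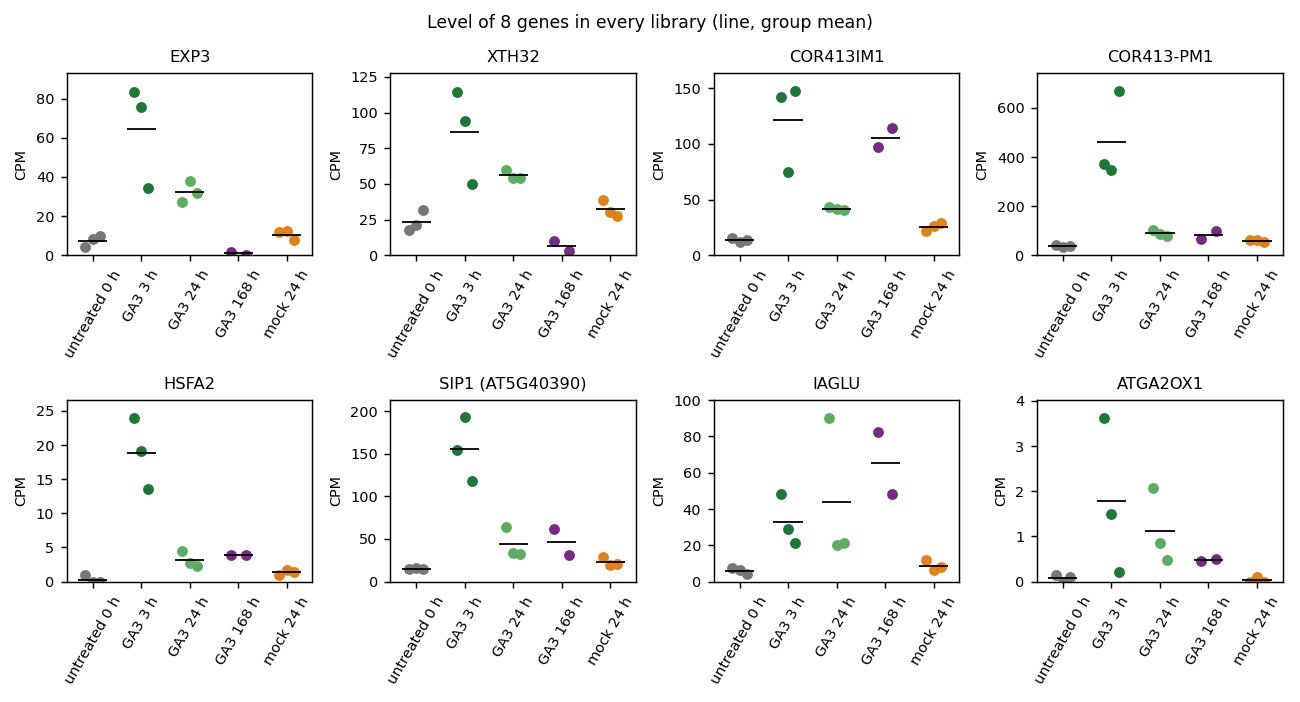
CPM of 8 genes in every library (points) with group means (lines), with groups on the x axis from untreated 0 h through GA3 3 h, 24 h and 168 h to mock 24 h, and y axes from 0. EXP3 and XTH32 are lowest at 168 h, and COR413IM1 and IAGLU are above all controls at 168 h. Every gene shown has its highest point at GA3 3 h except IAGLU, which has it at GA3 24 h.

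Of the 18 alpha-expansins in the list besides EXP3, 14 were tested. At 168 h 9 of these 14 were called lower than untreated (16.1% of all genes) and 0 higher (15.1%), with a median log2 fold change of -2.47 (all genes 0.01). Against GA3 24 h 10 were called lower (13.9% of all genes), with a median of -2.45 (all genes 0.04). EXPA4 averaged 28.6 ± 26.2 CPM at 168 h (SD, n = 2) and 26.4 ± 4.54 CPM in untreated leaves (SD, n = 3) and was not called. At GA3 24 h against mock, where no gene at all was called, none of the 15 tested with EXP3 was called (median 0.25, all genes -0.0028). At 3 h EXP3, by choice, and EXPA10 were the 2 of these 15 called higher than untreated. Over all genes 8.55% were called higher, so nothing about expansins is read from this count. EXPA10, singled out after its values were seen and not a member, averaged 138.6 ± 17.6 CPM at GA3 3 h and 31.1 ± 10.2 CPM at GA3 24 h, against 47.3 ± 10.9 CPM with mock and 28.0 ± 12.1 CPM in untreated leaves (SD, n = 3 each). Epidermis markers and most mesophyll markers were low at 168 h too, while vascular markers were mixed. Over all genes 16.1% were called lower than untreated at 168 h. Of 5 epidermis markers 5 were called lower than untreated, and they summed to 183 to 235 CPM at 168 h, against 634 to 735 CPM at GA3 24 h and 567 to 913 CPM in untreated leaves. Of 6 mesophyll markers 5 were called lower than untreated, with sums of 19490 to 25291 CPM at 168 h, against 37539 to 43463 CPM at GA3 24 h and 36260 to 43081 CPM in untreated leaves. Of 7 vascular markers 4 were called lower than untreated, while their sums overlapped, at 448 to 603 CPM at 168 h and 579 to 638 CPM in untreated leaves. SUC2 and APL had higher means at 168 h (303 and 36.6 CPM) than in untreated leaves (262 and 29.3 CPM). The part of these cell type levels in the members' 168 h values was not tested. ENODL2, an arabinogalactan-type wall protein, stood at 441, 317 and 361 CPM at GA3 24 h, against 288, 175 and 185 CPM with mock and 176, 121 and 89.8 CPM in untreated leaves. Its 244 and 171 CPM at 168 h were within the controls, and it was lower than at 24 h (-1.07 ± 0.30, adjusted p = 0.0247), a call that ended with total-count scaling (adjusted p = 0.0537) and without the second 168 h or the third GA3 24 h library (adjusted p up to 0.193). BGAL8, a beta-galactosidase, ranged from 126 to 207 CPM in the 6 GA3 libraries, against 76.4 to 118 CPM in the 6 controls, and passed no test. RTFL5, which belongs to a family of small peptides that restrain cell proliferation, was near the floor in controls, at 0.154, 0.154 and 0.193 CPM with mock and 0.045, 0 and 0 CPM in untreated leaves. RTFL5 held 1.57, 2.80 and 2.04 CPM at GA3 3 h and 0.984, 0.237 and 0.386 CPM at GA3 24 h, so that only the 3 h libraries stood well clear. At 168 h it was called higher than untreated on 0.546 and 0.197 CPM (4.02 ± 1, adjusted p = 0.0111), a call that ended without the first 168 h library (3.07, adjusted p = 0.0867) and grew to 5.86 without the first untreated library.

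The 3 cold-regulated membrane genes code for COR413 proteins of the chloroplast inner envelope (COR413IM1 and COR314-TM2, also known as COR413IM2) and the plasma membrane (COR413-PM1), which accumulate in the cold. All 3 were called higher at 168 h than in untreated leaves (15.1% of all genes), the direction the choice favours. Between 3 h and 24 h 2 of them fell (5.72% of all genes were called lower). COR413IM1 (AT1G29395) stood at 142, 75.2 and 147 CPM at GA3 3 h and at 43.3, 41.5 and 40.7 CPM at GA3 24 h, against 22.2, 26.1 and 28.7 CPM with mock and 15.3, 12.1 and 14.2 CPM in untreated leaves. Both GA3 groups stood clear of the controls by choice. All mock libraries were also above all untreated ones (13.9% of all genes), and all 24 h libraries below all 3 h ones (24.3%). It was lower at 24 h than at 3 h (-1.37 ± 0.21, adjusted p = 0.00259). At 168 h its 97.0 and 114 CPM were above GA3 24 h (1.08 ± 0.22, adjusted p = 0.00622) and untreated leaves (2.73 ± 0.23, adjusted p = 0.000214), and the call against GA3 24 h ended without the second 168 h library (adjusted p = 0.0727). Its neighbour COR314-TM2 (AT1G29390) lies 25 bases away on the same strand and showed far smaller differences. That gene ranged from 43.7 to 53.8 CPM at GA3 3 h and from 38.9 to 45.5 CPM at GA3 24 h, against 32.7 to 36.0 CPM with mock and 27.1 to 30.1 CPM in untreated leaves. At 168 h it reached 46.2 and 53.4 CPM (0.59 ± 0.14 against untreated, adjusted p = 0.0102, and adjusted p = 0.124 without the second 168 h library).

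COR413-PM1 (AT2G15970) stood at 372, 346 and 668 CPM at GA3 3 h and 104, 85.6 and 78.9 CPM at GA3 24 h, against 62.9, 61.1 and 54.3 CPM with mock and 41.2, 35.2 and 37.8 CPM in untreated leaves. The mock libraries all stood above the untreated ones (13.9% of all genes) and, by choice, below the GA3 24 h ones. It was lower at 24 h than at 3 h (-2.21 ± 0.25, adjusted p = 0.000601). With 65.8 and 97.4 CPM at 168 h it was higher than untreated (0.90 ± 0.26, adjusted p = 0.0242), a call that ended without the second 168 h, the second untreated or the third untreated library (adjusted p up to 0.245). Well-known cold and drought genes, none of them a member, moved at 3 h as a list of 10. At GA3 3 h 9 were called higher than untreated (8.55% of all genes, median 3.81, all genes -0.00014). At 24 h 8 were lower than at 3 h (5.72% of all genes, median -3.15, all genes -0.03). RD29A averaged 2220 ± 349 CPM at GA3 3 h and 70.1 ± 12 CPM at GA3 24 h, against 43.1 ± 13.2 CPM with mock and 31.0 ± 22.1 CPM in untreated leaves (SD, n = 3 each). At 24 h no gene of the list was called against untreated leaves, or against mock, where no gene at all was called. At 168 h none was called against untreated.

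Of the 7 chaperone and heat-shock genes, 5 were called higher at 168 h than in untreated leaves (15.1% of all genes), the direction the choice favours. HSFA2 (AT2G26150), a heat-shock transcription factor of acquired thermotolerance, stood at 24.0, 19.1 and 13.5 CPM at GA3 3 h and at 4.40, 2.7 and 2.23 CPM at GA3 24 h, against 1.03, 1.75 and 1.40 CPM with mock and 0.900, 0 and 0 CPM in untreated leaves. It fell at 24 h relative to 3 h (-2.45 ± 0.73, adjusted p = 0.0496), a call so close to the threshold that it ended without any 1 of the 6 libraries (adjusted p up to 0.157), with the RLE scaling of DESeq (adjusted p = 0.0505) and with no filter on low counts (adjusted p = 0.0513). At 168 h it stood at 3.91 and 3.93 CPM, higher than untreated (3.52 ± 0.90, adjusted p = 0.0127). That call ended without the second 168 h library (adjusted p = 0.0507) and in a fit of these groups alone (adjusted p = 0.123). The fold change was 9.23 without the first untreated library, which leaves untreated counts of 0 and a fitted value that depends on the prior count, and 2.93 without the second. The cytosolic HSP90 genes HSP81-3 and HSP81-2 lie 2220 bases apart on chromosome 5 and are near-identical copies. Reads that mapped to several places were counted in no gene, so reads shared by both copies are missing from their levels. HSP81-3 stood at 717, 676 and 653 CPM at GA3 3 h and at 521, 381 and 303 CPM at GA3 24 h, against 244, 250 and 267 CPM with mock and 225, 87.3 and 81.0 CPM in untreated leaves. HSP81-2 stood at 835, 738 and 674 CPM at GA3 3 h and at 604, 355 and 347 CPM at GA3 24 h, against 266, 274 and 320 CPM with mock and 255, 123 and 111 CPM in untreated leaves. In both genes all mock libraries were above all untreated ones (13.9% of all genes), and the first untreated library was the highest of its group. At 168 h HSP81-3 reached 558 and 429 CPM and was called higher than untreated (1.75 ± 0.34, adjusted p = 0.00373). HSP81-2 reached 486 and 329 CPM (1.15 ± 0.31, adjusted p = 0.0175), a call that ended without the first 168 h, the second untreated or the third untreated library (adjusted p up to 0.137) and in a fit of these groups alone (adjusted p = 0.0890).

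AT3G14200, annotated as a DnaJ-domain chaperone, stood at 59.8, 48.1 and 20.9 CPM at GA3 3 h and 20.9, 18.8 and 11.9 CPM at GA3 24 h, against 8.46, 8.74 and 7.30 CPM with mock and 6.75, 3.01 and 3.38 CPM in untreated leaves. With 23.5 and 14.5 CPM at 168 h it was called higher than untreated (1.94 ± 0.42, adjusted p = 0.00605, and adjusted p = 0.0505 without the first 168 h library). HSFC1, a class C heat-shock factor, was uneven within groups, with 20.6, 22.4 and 6.5 CPM at GA3 3 h and 19.2, 7.59 and 5.87 CPM at GA3 24 h, against 5.59, 2.11 and 2.47 CPM with mock and 2.53 to 3.69 CPM in untreated leaves. Its 29.6 and 12.2 CPM at 168 h were called higher than untreated (2.59 ± 0.63, adjusted p = 0.00991), and without the first 168 h library the fold change was 1.76 (adjusted p = 0.0954). In HSFC1 14.9% of reads at the locus were on the opposite strand, where AT3G24518 overlaps. Hsp70-15 and RbcX2, a Rubisco assembly chaperone, cleared the controls by little. RbcX2 ranged from 89.7 to 127 CPM in the 6 GA3 libraries, against 71.5 to 83 CPM in the 6 controls, and was the member of this group called lower at 168 h than at 24 h (-0.57 ± 0.17, adjusted p = 0.0294). That call ended with total-count scaling (adjusted p = 0.143), in a fit of these groups alone (adjusted p = 0.0614), with replicate number as a block (adjusted p = 0.0562), without either 168 h library and without the second or the third GA3 24 h library (adjusted p up to 0.168).

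The 7 sugar and starch genes split at 168 h. Of them 4 were called higher than untreated (15.1% of all genes), the direction the choice favours, and 2 lower (16.1%). The raffinose synthase gene SIP1 (AT5G40390) stood at 154, 193 and 118 CPM at GA3 3 h and at 64.6, 34.0 and 32.2 CPM at GA3 24 h, against 28.3, 20 and 20.8 CPM with mock and 14.3, 15.8 and 15.1 CPM in untreated leaves. The GA3 groups cleared the controls by choice. All mock libraries were also above all untreated ones (13.9% of all genes), and all 24 h libraries below all 3 h ones (24.3%). The gene was lower at 24 h than at 3 h (-1.69 ± 0.31, adjusted p = 0.00713). With 61.3 and 31.2 CPM at 168 h it was called higher than untreated (1.43 ± 0.34, adjusted p = 0.0086), with 0.81 and adjusted p = 0.126 without the first 168 h library. A second gene of the same name in the annotation, SIP1 (AT1G55740), ran at 1.81, 1.35 and 1.15 CPM at GA3 3 h and 1.55, 0.948 and 1.37 CPM at GA3 24 h, against 0.769, 0.565 and 0.677 CPM with mock and 0.450, 0.334 and 0.795 CPM in untreated leaves. Its 168 h libraries were far apart, at 1.32 and 5.90 CPM. It was called higher than untreated (2.55 ± 0.57, adjusted p = 0.00653), but the fold change was 1.11 without the second 168 h library (adjusted p = 0.200) and 3.24 without the first, and a fit of these groups alone gave adjusted p = 0.0606.

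TPPF, a trehalose-6-phosphate phosphatase, and TMT2, a vacuolar sugar transporter, were at least as high at 168 h as at GA3 24 h in the group means. TPPF stood at 11.4, 9.03 and 8.66 CPM at GA3 3 h and 6.42, 7.49 and 5.74 CPM at GA3 24 h, against 5.08, 3.70 and 3.82 CPM with mock and 2.83, 2.80 and 3.28 CPM in untreated leaves. At 168 h it held 12.7 and 10.6 CPM, higher than untreated (1.77 ± 0.23, adjusted p = 0.000682). TMT2 held 51.1 and 77.9 CPM at 168 h, against 21.5 to 25.7 CPM in untreated leaves (1.24 ± 0.19, adjusted p = 0.00126). BGLU40, a beta-glucosidase, and SUS6, a sucrose synthase, went the other way. BGLU40 stood at 69.2, 62.1 and 62.5 CPM at GA3 3 h and at 74.6, 82.2 and 82.7 CPM at GA3 24 h, against 54.5, 49.0 and 45.8 CPM with mock and 36.8, 25.5 and 22.8 CPM in untreated leaves. Its 20.1 and 22.8 CPM at 168 h were lower than at GA3 24 h (-2.15 ± 0.20, adjusted p = 0.000514). The call against untreated (-0.59 ± 0.19, adjusted p = 0.0323) ended with total-count scaling (adjusted p = 0.123), in a fit of these groups alone (adjusted p = 0.125), without either 168 h library and without the first untreated library (adjusted p up to 0.139). SUS6 stood at 3.5 and 3.19 CPM at 168 h, against 11.9 to 13.5 CPM at GA3 24 h (-2.14 ± 0.26, adjusted p = 0.000962) and 8.19 to 11 CPM in untreated leaves (-1.66 ± 0.25, adjusted p = 0.00121). Taken as a share of its mean rise at 3 h and 24 h over the controls, its 168 h difference was -285%, the lowest of the 60. SS4, a starch synthase that starts granules, was lower at 168 h than at 24 h (-0.71 ± 0.18, adjusted p = 0.0174), a call that ended with total-count scaling (adjusted p = 0.0567), in a fit of these groups alone (adjusted p = 0.0548), without either 168 h library and without the second GA3 24 h library (adjusted p up to 0.117).

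Of the transport genes, the aquaporin gene PIP1B (AT2G45960) took more reads than any other member. PIP1B stood at 2802, 2957 and 2978 CPM at GA3 3 h and at 1859, 1407 and 1347 CPM at GA3 24 h, against 1187, 1158 and 1286 CPM with mock and 975, 938 and 848 CPM in untreated leaves. It was lower at 24 h than at 3 h (-0.77 ± 0.17, adjusted p = 0.0174) and higher at 168 h, at 1927 and 1402 CPM, than in untreated leaves (0.66 ± 0.19, adjusted p = 0.0214). Both calls ended in a fit of the groups alone (adjusted p = 0.0749 and 0.110). The first also ended without the second or the third GA3 24 h or the second GA3 3 h library (adjusted p up to 0.0802), and the second without the first 168 h or the third untreated library (adjusted p up to 0.225) and with replicate number as a block (adjusted p = 0.0509). OEP16-1, a channel of the outer plastid envelope, stood at 151, 115 and 103 CPM at GA3 3 h and at 44.1, 42.0 and 54.5 CPM at GA3 24 h, against 36.2, 33.7 and 25.4 CPM with mock and 38.3, 36.0 and 32.9 CPM in untreated leaves. It fell at every later step, at 24 h relative to 3 h (-1.22 ± 0.20, adjusted p = 0.00356) and at 168 h, with 14.6 and 15.8 CPM, relative to 24 h (-1.88 ± 0.23, adjusted p = 0.000985) and to untreated leaves (-1.43 ± 0.23, adjusted p = 0.00142). The nitrate transporter gene NRT2.7 was lower at 168 h than at 24 h (-1.10 ± 0.22, adjusted p = 0.00577), a call that ended without the second 168 h library. NRT2.7 was also called lower than untreated (-0.75, adjusted p = 0.0238). That call ended with total-count scaling (adjusted p = 0.0588) and without either 168 h or the third untreated library. At that locus 68.6% of the reads were on the opposite strand, where the annotation holds no overlapping gene. Those opposite-strand reads ran the other way in time, at 101 to 109 CPM at 168 h, against 11.5 to 51.1 CPM at GA3 24 h and 7.72 to 8.79 CPM at GA3 3 h, with 37.3 to 55.1 CPM with mock and 16.0 to 43.4 CPM in untreated leaves.

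Among the remaining enzymes, SAHH2 (AT3G23810), which breaks down S-adenosylhomocysteine left by methylation, was lower at each later time. SAHH2 stood at 1267, 1764 and 1420 CPM at GA3 3 h and at 452, 463 and 587 CPM at GA3 24 h, against 435, 317 and 342 CPM with mock and 293, 303 and 306 CPM in untreated leaves. The 24 h libraries cleared the highest mock library by a ratio of only 1.04. Its level was lower at 24 h than at 3 h (-1.40 ± 0.37, adjusted p = 0.0343), a call that ended with limma-voom (adjusted p = 0.0528), without any GA3 24 h library and without the second or the third GA3 3 h library (adjusted p up to 0.121). At 168 h its 118 and 33.1 CPM were lower than at 24 h (-2.97 ± 0.47, adjusted p = 0.00215) and than in untreated leaves (-2.18 ± 0.45, adjusted p = 0.0046). Without the first 168 h library these fold changes were -4.21 and -3.42, and without the second -2.36 and -1.57, with the calls kept. TRANS11 (AT4G18270), annotated as translocase 11, stood at 24.4, 21.4 and 21.4 CPM at GA3 3 h and at 7.54, 6.68 and 6.98 CPM at GA3 24 h, against 5.69, 5.55 and 2.18 CPM with mock and 2.34, 2.72 and 2.73 CPM in untreated leaves. It fell between 3 h and 24 h (-1.50 ± 0.31, adjusted p = 0.0127, and adjusted p = 0.0563 without the second GA3 24 h library) and stood at 10.4 and 14.3 CPM at 168 h, higher than untreated (2.04 ± 0.35, adjusted p = 0.00189).

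XDH2 (AT4G34900), a xanthine dehydrogenase of purine breakdown, had the third highest score. XDH2 held 13.5, 9.63 and 7.81 CPM at GA3 3 h and 6.65, 7.35 and 11.3 CPM at GA3 24 h, against 3.18, 3.19 and 3.77 CPM with mock and 3.10, 1.67 and 2.38 CPM in untreated leaves. The call at 168 h against untreated (1.05 ± 0.32, adjusted p = 0.0287) ended with limma-voom (adjusted p = 0.0612), in a fit of these groups alone (adjusted p = 0.0829), and without the second 168 h, the second untreated or the third untreated library (adjusted p up to 0.213). ALDH3I1, an aldehyde dehydrogenase of the chloroplast, was the last member by score and was lower at 24 h than at 3 h (-0.65 ± 0.16, adjusted p = 0.0223). That call ended in a fit of these groups alone (adjusted p = 0.0809) and without the first or second GA3 24 h or the third GA3 3 h library (adjusted p up to 0.0979). FTRA2, a subunit of ferredoxin-thioredoxin reductase, moved little but evenly, at 68.8 to 74.3 CPM at GA3 3 h and 64.4 to 68.7 CPM at GA3 24 h, against 52.3 to 53.5 CPM with mock and 56.4 to 60.2 CPM in untreated leaves. At 168 h its 46.3 and 41.3 CPM were lower than at 24 h (-0.84 ± 0.13, adjusted p = 0.00202) and than in untreated leaves (-0.60, adjusted p = 0.00554). The FTRA2 call against untreated ended in a fit of these groups alone (adjusted p = 0.0562) and without the second 168 h library. In genome maintenance, the photolyase gene PHR1, whose enzyme repairs ultraviolet damage with light, was lower at 168 h than at 24 h (-1.19 ± 0.20, adjusted p = 0.00268), with 3.27 and 3.68 CPM, against 5.87 to 7.16 CPM at GA3 24 h. CTF7, which acetylates cohesin, and TTN9 passed none of the 4 tests. CTF7 stood at 3.00, 3.54 and 2.38 CPM at GA3 3 h and 3.05, 2.42 and 2.44 CPM at GA3 24 h, against 1.95, 1.90 and 1.79 CPM with mock and 0.585, 1.88 and 1.79 CPM in untreated leaves, and its 3.32 and 2.95 CPM at 168 h were above all controls. AT1G69680, annotated as a putative Ran guanine nucleotide release factor, was called higher at 168 h than untreated (0.60 ± 0.20, adjusted p = 0.0366). The AT1G69680 call ended in a fit of these groups alone (adjusted p = 0.121), with no filter on low counts (adjusted p = 0.0659) and without any 1 of the 5 libraries (adjusted p up to 0.284).

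Among the 5 other regulators, 1 was called lower at 168 h than in untreated leaves (16.1% of all genes) and 2 lower than at GA3 24 h (13.9%). WRKY23, a transcription factor linked to auxin in roots, stood at 7.57, 5.89 and 4.75 CPM at GA3 3 h and 2.58, 3.70 and 2.87 CPM at GA3 24 h, against 1.49, 1.39 and 2.03 CPM with mock and 1.66, 1.42 and 1.29 CPM in untreated leaves. Its 168 h libraries, at 0.637 and 2.41 CPM, fell on either side of the controls, and no test was passed. IDD16, an INDETERMINATE DOMAIN factor, stood at 12.5, 8.74 and 4.42 CPM at GA3 3 h and 3.61, 3.46 and 2.31 CPM at GA3 24 h, against 1.02 to 2.05 CPM with mock and 0.961 to 2.07 CPM in untreated leaves. AT3G17640, a leucine-rich repeat protein, was lower at 168 h, at 0.136 and 0.737 CPM, than at GA3 24 h, at 5.15, 3.79 and 3.38 CPM (-3.48 ± 0.72, adjusted p = 0.00638). That fold change was -2.74 without the first 168 h library and -5.09 without the second, with the call kept. It was also the member called lower than untreated (-2.19 ± 0.70, adjusted p = 0.0334), where it held 1.26, 1.55 and 2.33 CPM. The call against untreated ended with limma-voom (adjusted p = 0.150), in a fit of these groups alone (adjusted p = 0.103), with replicate number as a block (adjusted p = 0.0534) and with total-count scaling (adjusted p = 0.0514). It ended too without the first 168 h, the second untreated or the third untreated library (adjusted p up to 0.190), and the fold change was -1.45 without the first 168 h library and -3.81 without the second. RSH1, of an enzyme family that sets levels of the plastid alarmone ppGpp, ranged from 107 to 132 CPM in the 6 GA3 libraries, against 71.2 to 99.0 CPM in the 6 controls, and passed no test.

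The largest called fall between 3 h and 24 h was in a little-described gene, AT1G51090. AT1G51090 stood at 71.3, 44.0 and 57.6 CPM at GA3 3 h and at 9.51, 7.35 and 6.90 CPM at GA3 24 h, with mock and untreated levels as given above. It was lower at 24 h than at 3 h (-2.70 ± 0.29, adjusted p = 0.000447), and its 14.2 and 8.65 CPM at 168 h were higher than untreated (3.17 ± 0.33, adjusted p = 0.000339). AT3G09550, an ankyrin repeat protein, was lower at 24 h, at 1.59, 1.47 and 1.24 CPM, than at 3 h, at 5.81, 3.99 and 4.12 CPM (-1.53 ± 0.39, adjusted p = 0.0285). The AT3G09550 call ended without any GA3 24 h library and without the first or second GA3 3 h library (adjusted p up to 0.0902), and 53.1% of reads at the locus were on the opposite strand, where AT3G09540 overlaps. AT1G01355 was highest at 168 h, at 1.59 and 1.62 CPM, against at most 0.0497 CPM in untreated leaves (6.07 ± 1.08, adjusted p = 0.00233, and 7.97 without the third untreated library). At 3 h and 24 h it stood between 0.129 and 0.522 CPM, so its place among the members rested on few reads. In untreated leaves it was near 0, so it passed the filter on low counts through other groups, such as 168 h. For AT1G01355 the call against untreated is therefore partly built in. Its 168 h difference was 447% of its mean rise at 3 h and 24 h, the highest share of the 60, where the median was 44.9%. AT1G02190, annotated as a fatty acid hydroxylase, lies 424 bases from AT1G02180, annotated as a ferredoxin-like protein. AT1G02190 stood at 2.76, 2.40 and 1.10 CPM at GA3 3 h and 0.375, 0.237 and 0.257 CPM at GA3 24 h, against 0, 0.154 and 0 CPM with mock and 0 CPM in all untreated libraries. AT1G02180 stood at 5, 4.79 and 3.27 CPM at GA3 3 h and 1.83, 1.56 and 2.44 CPM at GA3 24 h, against 0.976 to 1.26 CPM with mock and 0.695 to 1.5 CPM in untreated leaves. In both genes all 24 h libraries were below all 3 h libraries (24.3% of all genes), and neither passed a test. A mean under 3 CPM over the 6 GA3 libraries was found in 11 members, and a mean of at least 100 CPM in 11.

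Reads on the opposite strand made up at least 10% in 9 members, 7 of which overlap a gene on that strand, and the opposite strand of no member met the choice. With strand ignored, 52 of the 60 members remained. The neighbours among the members were COR413IM1 with COR314-TM2, AT1G02190 with AT1G02180, HSP81-3 with HSP81-2, and TRANS11 with SS4, which lie 11469 bases apart. Members lay on all chromosomes, 19 on chromosome 1, 9 on 2, 9 on 3, 13 on 4 and 10 on 5. The wider gibberellin lists gave no call at GA3 24 h relative to mock. No gene of the 20077 was called in that comparison, so the absence of calls says nothing particular about these lists. Of 8 synthesis genes tested, 14 receptor, DELLA and DELLA-target genes, 10 GASA peptide genes and 4 PRE growth factor genes, none was called, with median log2 fold changes of -0.04, -0.35, -0.01 and 0.57 beside -0.0028 for all genes, and no member belongs to these 4 lists. At 168 h relative to untreated leaves 6 of the 10 GASA genes were called lower (16.1% of all genes) and 1 higher (15.1%), with a median of -2.34 (all genes 0.01). The other lists gave few calls there. Of the 8 synthesis genes 0 were called higher and 1 lower (median 0.15). Of the 14 receptor, DELLA and DELLA-target genes 2 were higher and 2 lower (median 0.01). None of the 4 PRE genes was called (median -0.85).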

How the data were processed

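RNA-seq reads of 14 leaf libraries were counted per gene. The deposited tables hold raw counts, which the authors made with STAR 2.7.7a on TAIR10, per the submitters' processing notes. The gene annotation used was not given in the sources used here. Column 4, the sense strand, was used, and the 4 lines of reads in no gene (4.18% to 11.2% of a library) were left out of totals. CPM was computed from these counts. Differences were fitted with edgeR 4.0.16 (quasi-likelihood, TMM, filterByExpr, 1 coefficient per group, all 14 libraries, 20077 genes) in R 4.3.3, and p-values were adjusted over all genes by Benjamini-Hochberg. The series text calls replicates biological. The fit was tested on simulated data. Alternatives were RLE and total-count scaling, DESeq2 1.42.0, limma-voom 3.58.1, other count filters, fits of the groups alone, a replicate block and leaving out each library. Python 3.11.15 ranked genes and drew figures.

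The members, role groups and gene lists were chosen with earlier results of these data known. Genes named were the 15 highest scores, the 5 highest in mean CPM, list and family members, up to 5 with the smallest p per comparison and direction, the extremes at 168 h and the genes at the threshold. Other members named were chosen after their values were seen. Of the 34218 gene IDs, 32548 matched RefSeq TAIR10.1, including all 60 members. RefSeq symbols and promoters were used. Replicate numbers were not used to pair samples, since 10 of 26 same-numbered pairs, and not all, had correlated deviations over 0.1.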

Additional observations from a re-analysis of the deposited data

Results flagged for a closer look

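The 11 members that were called lower at GA3 24 h than at GA3 3 h are listed here because their difference between these time points of the same treatment passed the edgeR test over all genes. No mock or untreated leaf was taken at 3 h, so time since the puncture, time of day and GA3 cannot be told apart in them. The log2 fold changes of the cold-regulated and sugar genes were -1.37 for COR413IM1, -2.21 for COR413-PM1 and -1.69 for SIP1 (AT5G40390). Among transport genes OEP16-1 changed by -1.22 and PIP1B by -0.77. The heat-shock factor gene HSFA2 changed by -2.45, and the enzyme genes SAHH2, TRANS11 and ALDH3I1 by -1.40, -1.50 and -0.65. The little-described genes AT1G51090 and AT3G09550 changed by -2.70 and -1.53. The GA3 3 h and GA3 24 h libraries did not overlap in the genes of this list, which is largely built in, since a test of these groups picked them. Over all tested genes 5.72% were called lower, and 24.3% had all 24 h libraries below all 3 h libraries. Of the 11 calls, 5 (COR413IM1, AT1G51090, COR413-PM1, SIP1 of AT5G40390 and OEP16-1) were kept without any 1 of the 6 libraries.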

How the results depend on the processing

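Of the 60 members, 39 remained with TMM-scaled libraries, 6 with a rank by difference of means, and 18 to 58 without 1 library. For mock against untreated, 156 genes were called, with DESeq2 1161, with limma-voom 36, and 4 to 233 without 1 library. The 1 member called there became 5 with DESeq2, 0 with limma-voom, 0 in a fit of the groups alone, 2 with a replicate block and 0 to 5 without 1 library. For GA3 24 h against GA3 3 h, 2290 genes became 3761 with DESeq2, 1059 in a fit of the groups alone and 749 to 2767 without 1 library. The 11 members lower became 16 with DESeq2 and 5 to 13 without 1 library. For GA3 168 h against untreated, 6273 genes ranged from 2511 to 6779 without 1 library. The 25 members higher became 15 in a fit of the groups alone and 16 to 25 without 1 library, and the 9 lower became 4 and 5 to 9. For GA3 168 h against GA3 24 h, 4856 genes became 2096 in a fit of the groups alone and 898 to 5421 without 1 library. The 1 member higher became 2 with DESeq2, 2 with limma-voom, 3 with total counts and 0 to 2 without 1 library, and the 19 lower became 12 in a fit of the groups alone and 11 to 19. Among contrasts that chose the members, DESeq2 called 47 genes for GA3 24 h against mock (edgeR 0). For GA3 24 h against untreated, 989 genes became 2500 with DESeq2, 0 in a fit of the groups alone and 6 to 1384 without 1 library, and for GA3 3 h against untreated, 2848 became 4336 with DESeq2 and 1475 to 3065. The cause of these shifts was not tested. Of 66 calls on single members none changed sign under any setting, and DESeq2 kept 66, RLE 64, total counts 57 and the replicate block 60. A fit of the groups alone kept the fewest among settings with all libraries, 41 of 65. Leaving out single libraries ended calls too. Replicate numbers did not meet the condition for pairing, which asks for a correlation over 0.1 in every pair, with correlations of deviations between same-numbered libraries of -0.286 to 0.309 (median 0.035, 10 of 26 pairs over 0.1) and a median of -0.04 over 52 pairs with other numbers. With 2 libraries at 168 h and a single mock time, counts of calls there rest on few samples, and 11 members averaged under 3 CPM, where a change in a few reads moves the value.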
